A study of Mus musculus with 4 samples.

Results

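A set of 10 genes from transforming growth factor beta (TGF-beta) signalling was followed in a mouse podocyte line: the ligand genes Tgfb1, Tgfb2 and Tgfb3, the receptor genes Tgfbr1, Tgfbr2 and Tgfbr3, the signal transducer genes Smad2 and Smad3, the inhibitor gene Smad7, and Ltbp1, which encodes a carrier of the latent ligand. They were chosen by symbol, and each symbol matched 1 of the 56393 genes of the count table, so 10 of 10 members were found. All 10 were among the 14187 genes that passed the count minimum, a mean of 50 or more per library. The cells were MPC podocytes, a conditionally immortalised mouse line that was expanded at 33 °C with 20 U/ml interferon-gamma and then differentiated for 7 days at 37 °C in its absence. The sh-NC cells carried a control hairpin and had no added glucose, and the sh-NC/HG cells carried the same hairpin and received D-glucose to 40 mmol/L for 24 h. The sh-JAML cells carried a hairpin against Jaml, the junction adhesion molecule-like gene, and the sh-JAML/HG cells carried that hairpin with the same added glucose. Each group had 1 library, so no spread between cultures can be given. Podocytes are the cells of the glomerular filter, and the series is about what Jaml does in them in diabetic kidney disease.

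TGF-beta ligands are secreted in a latent form, bound to their propeptide and to a latent TGF-beta binding protein that anchors them in the matrix. A freed ligand binds the type II receptor, which recruits and activates the type I receptor, and this in turn phosphorylates SMAD2 and SMAD3. These enter the nucleus with SMAD4 and act on target genes, among them Smad7, whose product shuts the receptors off. In the glomerulus the pathway is known for matrix build-up and podocyte injury.

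The promoters of the receptor gene with the highest level of the 10 and of the carrier gene that was lower with glucose under both hairpins show what lies just before these starts. The 250 bases before the RefSeq start are given for Tgfbr2 (chr9:116175364-116175613, minus strand) and for the upstream and downstream starts of Ltbp1 (chr17:75005279-75005528 and chr17:75178531-75178780, plus strand), on GRCm38.p6, with any match to CAGACA in either strand in capitals:
Tgfbr2: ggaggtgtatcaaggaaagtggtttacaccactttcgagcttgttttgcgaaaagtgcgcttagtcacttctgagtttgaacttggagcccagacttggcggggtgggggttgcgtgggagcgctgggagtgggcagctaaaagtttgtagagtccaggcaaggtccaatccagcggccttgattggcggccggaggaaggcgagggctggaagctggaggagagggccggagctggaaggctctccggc
Ltbp1 upstream start: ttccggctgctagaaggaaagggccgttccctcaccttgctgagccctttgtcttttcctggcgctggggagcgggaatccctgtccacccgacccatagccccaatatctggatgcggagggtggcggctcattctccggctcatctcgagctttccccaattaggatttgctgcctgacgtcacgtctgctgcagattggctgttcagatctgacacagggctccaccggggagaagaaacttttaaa
Ltbp1 downstream start: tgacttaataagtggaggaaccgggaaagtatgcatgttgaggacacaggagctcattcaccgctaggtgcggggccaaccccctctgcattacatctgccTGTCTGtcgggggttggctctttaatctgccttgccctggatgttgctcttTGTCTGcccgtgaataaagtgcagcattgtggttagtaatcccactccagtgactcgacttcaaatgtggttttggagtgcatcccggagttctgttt
CAGACA is the core of the box that SMAD3 and SMAD4 bind. It was found 2 times in the window of the downstream Ltbp1 start, both times as its reverse complement, 149 and 98 bases before the start, and in neither of the other windows shown. Windows of this length were read for 6 members, 8 windows in all. CAGACA was present in 3 of them, the others being a Tgfb2 window and the second Tgfbr1 window. No window was read for Smad2, Smad7, Tgfb3 or Tgfbr3, so the motif search says nothing of these members. Of all 32851 RefSeq windows of this length, 17.1% held it. The SMAD palindrome GTCTAGAC (0.167% of all windows) and the AP-1 motif TGANTCA (6.75%) were in none of the 8, with both strands read, and the CAGACA matches did not overlap. Gene-level counts do not tell which Ltbp1 start was used in these cells.

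The deposited counts summed to between 79330461 and 94341975 per library. Jaml had a count of 0 in every library, which allowed at most 0.129 to 0.151 CPM (counts scaled to a common library size), so the hairpin's effect on its target could not be read. Of the 11 podocyte markers listed, 8 passed the count minimum. Of the markers of other cell types, 4 of 9 for tubule, 5 of 9 for mesangial cells and fibroblasts, 0 of 5 for endothelium, 1 of 5 for leukocytes and 4 of 4 for red cells passed the count minimum. The sh-NC/HG library stood apart, with 617 genes 2-fold or more above and 357 as far below the mean of the other libraries, against 126 to 160 and 196 to 241 for the rest. Levels are CPM scaled by edgeR's TMM factors, and where 4 values are given they follow the order sh-NC, sh-NC/HG, sh-JAML, sh-JAML/HG. A ratio of 2 libraries is followed in parentheses by its exact 95% Clopper-Pearson counting interval, which leaves out the variation between cultures. In this bulk RNA, fewer cells of a type and less RNA per cell cannot be told apart.

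Of the ligands, Tgfb1 was nearly level across the libraries, Tgfb2 was slightly lower with the Jaml hairpin, and Tgfb3 was scarce. Tgfb1 (chromosome 7, 25687002 to 25705077), the main ligand in kidney scarring, stood at 65.8, 69.2, 64.8 and 67.0 CPM. The highest of these was 1.07-fold the lowest, and all 4 ratios had an interval that included 1. With added glucose Tgfb1 was 1.05-fold (0.976 to 1.13) of the basal level in sh-NC cells and 1.03-fold (0.957 to 1.11) in sh-JAML cells. Tgfb2 (chromosome 1, 186622792 to 186705989) stood at 43.0, 39.3, 34.1 and 34.7 CPM. Both sh-JAML libraries lay below both sh-NC libraries, by 1.26-fold (1.14 to 1.40) without and 1.13-fold (1.03 to 1.25) with added glucose. Glucose ratios of Tgfb2 had intervals that included 1 under either hairpin.

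Tgfb3 (chromosome 12, 86056745 to 86079041) had counts of 72, 172, 64 and 17, where 4 count units were taken as 1 sequenced fragment. These are levels of 0.906, 1.85, 0.799 and 0.201 CPM. The sh-NC/HG library was the highest and the sh-JAML/HG library the lowest, so added glucose went with a higher level under the control hairpin and a lower level under the Jaml hairpin. It was 2.04-fold higher (1.15 to 3.75) with glucose in sh-NC cells and 3.97-fold lower (1.36 to 17.3) in sh-JAML cells. With the Jaml hairpin it was 0.881-fold (0.42 to 1.83) without and 9.17-fold lower (3.54 to 37.4) with added glucose. Of its exon bases, 12.4% overlap Gm37804 and Gm48008 on the other strand, and the sources used here do not say whether counting used strand, so its assignment is uncertain.

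Ltbp1 was lower with added glucose under both hairpins. The gene (chromosome 17, 75005568 to 75392512) encodes latent TGF-beta binding protein 1, and stood at 91.5, 48.3, 95 and 70.8 CPM. Both glucose libraries lay below both libraries without added glucose, and the libraries without added glucose differed by 1.04-fold (0.974 to 1.11). The 4 red cell markers, all globin genes, were low in the same libraries, with sums of 37.3, 0.472, 41.3 and 0.249 CPM, and their part in the Ltbp1 difference was not tested. The glucose difference was 1.89-fold lower (1.76 to 2.04) in sh-NC cells and 1.34-fold lower (1.25 to 1.44) in sh-JAML cells. The log2 glucose difference in sh-NC cells minus that in sh-JAML cells was -0.496 (95% counting interval -0.641 to -0.351), with no replicate check. With the Jaml hairpin and added glucose Ltbp1 was 1.47-fold higher (1.36 to 1.59) than with the control hairpin. Among the other carriers, named after their values were seen, Ltbp3 was 1.29-fold higher (1.25 to 1.33) and Ltbp4 2.0-fold higher (1.75 to 2.30) with glucose in sh-NC cells, and 1.02-fold (0.986 to 1.06) and 1.04-fold (0.909 to 1.20) in sh-JAML cells. Per kilobase of exon, Ltbp3 stood at 34.0, 43.8, 34.0 and 34.7 CPM, and Ltbp1 at 8.55, 4.52, 8.89 and 6.62 CPM, so Ltbp3 was the more abundant in each library.

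**Figure D1:**
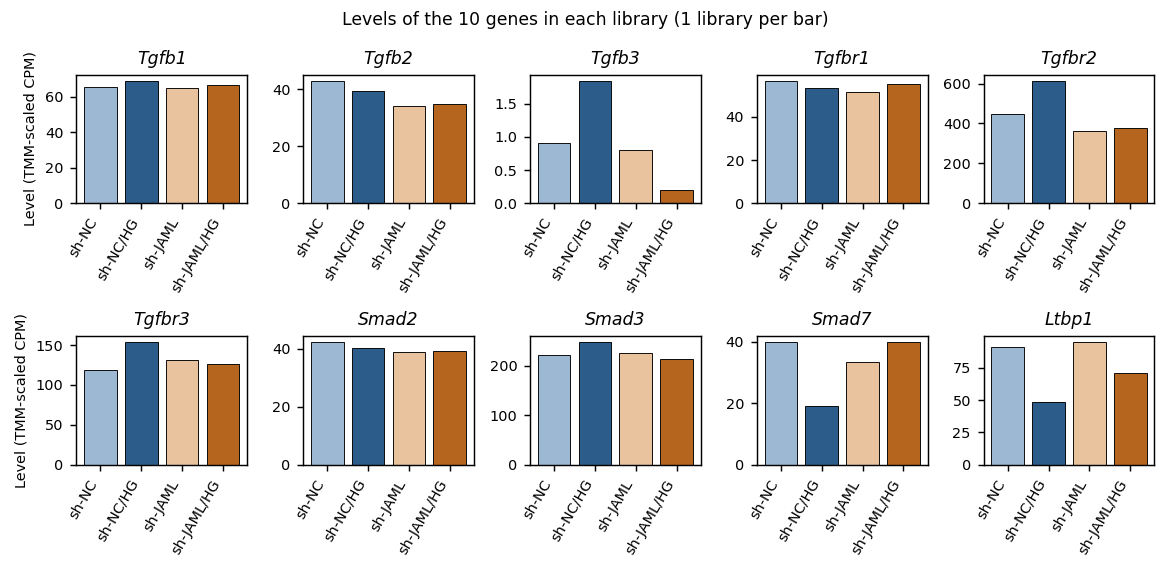
Bars give the TMM-scaled level in CPM of each of the 10 genes (1 panel each, axes from 0) in the 4 libraries, 1 library per bar and no error bar. Smad7 and Ltbp1 are lowest in sh-NC/HG, at 18.9 and 48.3 CPM, and Tgfbr2 is highest there, at 615 CPM.

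Of the receptors, Tgfbr2 and Tgfbr3 were higher with glucose in sh-NC cells and Tgfbr1 was nearly level. Tgfbr2 (chromosome 9, 116084293 to 116175360), the ligand-binding type II receptor gene, stood at 447, 615, 364 and 378 CPM. It was highest in sh-NC/HG, and both sh-JAML libraries lay below both sh-NC libraries. With glucose it was 1.37-fold higher (1.34 to 1.41) in sh-NC cells and 1.04-fold (1.0 to 1.07) in sh-JAML cells, where the interval only just excluded 1. With the Jaml hairpin Tgfbr2 was 1.23-fold lower (1.19 to 1.27) without and 1.63-fold lower (1.58 to 1.67) with added glucose. These hairpin ratios share no library with each other, but each shares its libraries with the glucose ratios. Tgfbr3 (chromosome 5, 107106570 to 107289629), which encodes the co-receptor betaglycan, stood at 119, 154, 132 and 126 CPM. Only the sh-NC/HG library stood above the narrow range of the other values, 1.30-fold (1.23 to 1.37) above sh-NC. In sh-JAML cells the Tgfbr3 glucose ratio was 0.958 (0.908 to 1.01). With the Jaml hairpin it was 1.11-fold higher (1.05 to 1.17) without and 1.22-fold lower (1.16 to 1.28) with added glucose. Of its exon bases, 4.54% are shared with Gm43422 on the same strand. Tgfbr1 (chromosome 4, 47353222 to 47414931), the type I receptor gene, stood at 56.7, 53.3, 51.3 and 55.1 CPM, and its highest level was 1.11-fold its lowest. The sh-JAML library was 1.11-fold lower (1.01 to 1.20) than sh-NC for Tgfbr1, and its other ratios had intervals that included 1.

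Of the SMAD genes, Smad2 and Smad3 were close to level, while Smad7 was lower in sh-NC/HG than in every other library. Smad7 (chromosome 18, 75367529 to 75395935), the inhibitory SMAD, stood at 40.0, 18.9, 33.3 and 40.0 CPM. With added glucose it was 2.11-fold lower (1.88 to 2.38) in sh-NC cells and 1.20-fold higher (1.08 to 1.33) in sh-JAML cells. The log2 glucose difference in sh-NC cells minus that in sh-JAML cells was -1.34 (95% counting interval -1.56 to -1.12). With the Jaml hairpin Smad7 was 1.20-fold lower (1.08 to 1.33) without and 2.11-fold higher (1.88 to 2.37) with added glucose. Smad6, the other inhibitory SMAD gene, named after its values were seen, was 1.45-fold lower (1.34 to 1.57) in sh-NC/HG and 1.09-fold lower (1.01 to 1.18) in sh-JAML/HG than in the matched library without added glucose.

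Smad3 (chromosome 9, 63646767 to 63757994) stood at 223, 249, 226 and 214 CPM. It was 1.12-fold higher (1.07 to 1.16) with glucose in sh-NC cells and 1.06-fold lower (1.01 to 1.10) in sh-JAML cells. Both intervals exclude 1 and lie on opposite sides of it, at differences that are small beside those of Smad7. Between hairpins Smad3 was 1.01-fold (0.973 to 1.06) in sh-JAML relative to sh-NC, and 1.16-fold lower (1.12 to 1.21) in sh-JAML/HG relative to sh-NC/HG. Smad2 (chromosome 18, 76241580 to 76310963) stood at 42.3, 40.2, 38.7 and 39.2 CPM, its highest level was 1.09-fold its lowest, and all 4 ratios had an interval that included 1.

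**Figure D2:**
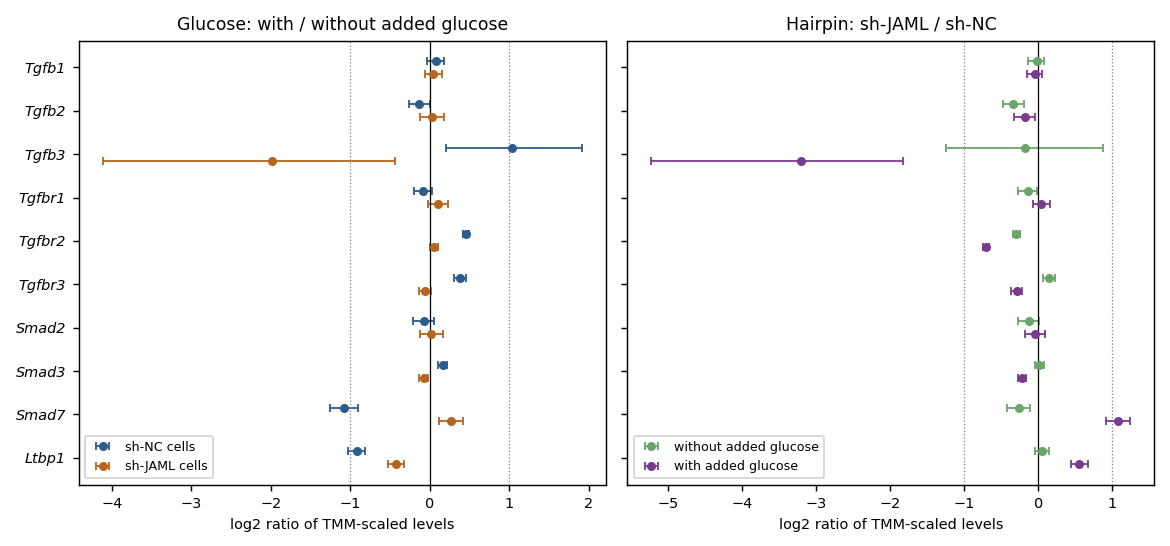
Points give log2 ratios of TMM-scaled levels for the 10 genes, glucose ratios under each hairpin on the left and hairpin ratios at each glucose condition on the right, with exact 95% counting intervals as bars and dotted lines at 2-fold. Smad7 lies at -1.08 in sh-NC cells and 0.26 in sh-JAML cells, Ltbp1 lies below 0 under both hairpins, and the widest intervals belong to Tgfb3.

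Levels of different genes were compared per kilobase of exon. By the mean of the 4 libraries the order was Tgfbr2 (55.1 CPM per kb), Smad3 (41.1), Tgfbr3 (20.3), Tgfb1 (13.2), Tgfbr1 (8.28), Smad7 (7.31), Ltbp1 (7.15), Tgfb2 (6.52), Smad2 (4.57) and Tgfb3 (0.277). Among the 14187 genes, 93.5% lay below Tgfbr2, 90.6% below Smad3 and 3.69% below Tgfb3. Tgfbr2 and Smad3 had overlapping ranges over the libraries, 44.5 to 75.1 and 38.5 to 44.8 CPM per kb, although Tgfbr2 was the higher in each library. Smad7 and Ltbp1 had ranges that overlapped each other and those of Tgfbr1 and Tgfb2, whose own ranges did not overlap, and that of Smad2, 4.41 to 4.82 CPM per kb, overlapped those of Smad7 and Ltbp1 but lay below that of Tgfb2. Tgfbr3, Tgfb1 and Tgfb3 overlapped no neighbour in this order. Smad3 was 8.33, 9.79, 9.25 and 8.64 times the level of Smad2 per kilobase. Smad7 per Smad3 was 0.220, 0.0934, 0.181 and 0.229, lowest in sh-NC/HG. Of the summed ligand level per kilobase, Tgfb1 made up 62.9% to 68.7%, Tgfb2 31.0% to 35.8% and Tgfb3 0.308% to 2.59%. Tgfbr2 per Tgfbr1 was 6.29, 9.20, 5.67 and 5.47, highest in sh-NC/HG.

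**Figure D3:**
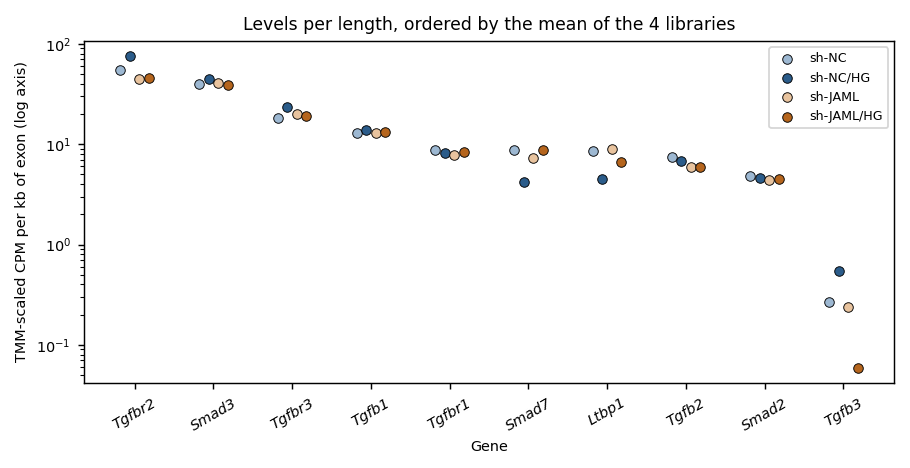
Points give the TMM-scaled level per kilobase of exon on a log axis, 1 point per gene and library, genes ordered by their mean. Tgfbr2 and Smad3 are the most abundant of the 10, at means of 55.1 and 41.1 CPM per kb, and Tgfb3 lies far below the rest at 0.277.

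Few of the 10 genes reached a 2-fold difference. In sh-NC/HG against sh-NC, Tgfb3 alone of the 10 was 2-fold or more higher (4.65% of all genes) and Smad7 alone 2-fold or more lower (3.27%), and Tgfb3, Smad7 and Ltbp1 were 1.5-fold or more apart in either direction (19.0%). For glucose in sh-JAML cells, none of the 10 was 2-fold higher (1.31%), Tgfb3 alone was 2-fold lower (1.56%), and Tgfb3 alone was 1.5-fold apart (7.75%). In sh-JAML against sh-NC, 0 of 10 were 2-fold higher (1.31%), 0 lower (1.40%) and 0 were 1.5-fold apart (8.02%). Between the hairpins under added glucose, Smad7 was 2-fold higher (2.81%), Tgfb3 was 2-fold lower (4.78%), and Tgfb3, Tgfbr2 and Smad7 were 1.5-fold apart (18.2%). With 10 genes a single call is already 10% of the set, so these counts show nothing particular to it. The median log2 ratio of the 10 was -0.001, 0.021, -0.137 and -0.114 in that order of comparisons, beside a median over all genes within 0.002 of 0.

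The sh-NC/HG library held the highest or the lowest level of 7 of the 10 genes (70.0%), and of 72.3% of all genes past the count minimum, a share close to that of the 10. No other library of its group was analysed here, so results that use it cannot be given without it. The glucose comparison in sh-JAML cells and the hairpin comparison without added glucose do not use the sh-NC/HG library. With glucose in sh-JAML cells, Smad7 was 1.20-fold higher and Ltbp1 1.34-fold lower. With the Jaml hairpin and no added glucose, Smad7 was 1.20-fold lower and Ltbp1 1.04-fold, with an interval that included 1. Other measures moved with sh-NC/HG. Mitochondrially encoded mRNAs made up 1.33% of its count against 1.95% to 2.15% in the others, and replication-dependent histones 0.0254% against 0.0391% to 0.0478%. The 9 mesangial and fibroblast markers summed to 1230, 830, 874 and 881 CPM, with Itga8 at 0 in each library. Within that list Acta2 was lowest in sh-NC/HG, while Dcn (0.428, 6.45, 0.799 and 0.580 CPM) and Des (0.453, 2.32, 0.112 and 0.201 CPM) were highest in sh-NC/HG. Summed levels of the 9 tubule markers were 1050, 1340, 1080 and 852 CPM, with Slc34a1 and Umod at 0. The part of these in the results was not tested.

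The glucose and hairpin terms of an additive model over the 4 libraries were the only test the design allows, with 1 residual degree of freedom, and 0 of the 10 genes passed it. For glucose, edgeR's quasi-likelihood test called 1 of 14187 genes (0.00705%; Pcdhgb4, named after its values were seen) at a Benjamini-Hochberg adjusted p under 0.05, and the adjusted p of the 10 ran from 0.927 to 0.995. Ltbp1 ranked first of the 10, at a log2 difference of -0.67 (SE 0.16, edgeR adjusted p = 0.927). It was lower with glucose under both hairpins. In edgeR 1 of the 10 had an unadjusted p under 0.05 for glucose (Ltbp1) and 1 for the hairpin (Tgfbr2), beside 397 and 400 of all 14187 genes. For the hairpin, edgeR called 0 genes (0%), DESeq2 called 48 and limma-voom 0. Tgfbr2 ranked first of the 10 there, at -0.50 (SE 0.14, edgeR adjusted p = 0.933), and was lower with the Jaml hairpin in both pairs. DESeq2 called none of the 10 for either term, with a lowest adjusted p of 0.288 (Ltbp1, glucose) and 0.633 (Tgfbr2, hairpin). Smad7, with opposite glucose directions under the hairpins, had a glucose term of -0.41 (SE 0.37), since the additive model fits 1 glucose difference to both.

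Of 97 further pathway genes in 6 lists, 77 passed the count minimum and 6 had a count of 0 in every library, among them the activin-family genes Nodal and Mstn and the BMP antagonist gene Grem1. In sh-NC/HG against sh-NC, 55 of the 77 lay below 0 and 22 above, with a median log2 ratio of -0.20 beside 0.002 for all genes, and 5 were 2-fold or more higher and 8 lower, beside 4.65% and 3.27% of all genes. The other comparisons had medians of -0.004 (sh-JAML/HG against sh-JAML, 2 higher by 2-fold and 0 lower, beside 1.31% and 1.56% of all genes), -0.11 (sh-JAML against sh-NC, 1 and 0, beside 1.31% and 1.40%) and 0.13 (sh-JAML/HG against sh-NC/HG, 3 and 5, beside 2.81% and 4.78%). No gene of these lists that is named here was called by edgeR for either term.

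Target genes of the SMADs lay mostly lower in sh-NC/HG relative to sh-NC, with 16 of 22 below 0 and a median log2 ratio of -0.49. In sh-JAML relative to sh-NC, 18 of 22 lay below 0, with a median of -0.39. Both comparisons use the same single sh-NC library, so a high level in that library alone would lower both medians. They are not independent of each other. Over all genes the median was 0.002 in both comparisons. In sh-JAML/HG against sh-JAML the list was split 11 to 11 with a median of 0.01. In sh-JAML/HG against sh-NC/HG, 13 lay above 0 and 9 below, with a median of 0.13. The list was not split into genes that SMADs raise and genes that they lower, so its medians do not measure SMAD activity. In sh-NC/HG against sh-NC, 3 targets were 2-fold or more higher and 3 lower, beside 4.65% and 3.27% of all genes. The 3 higher ones, Id3, Postn and Snai2, are described below. Ccn2 and Myc, named after their values were seen, were among the 3 lower, at log2 ratios of -1.31 and -1.21. Acta2 and Col1a1, counted among these targets, are also mesangial and fibroblast markers, and Acta2 alone (1071, 678, 730 and 743 CPM) made up most of the marker sum, whose part here was not tested. Id3, which encodes an inhibitor of DNA binding and is a classic BMP target, stood at 18.1, 38.2, 19.2 and 16.6 CPM, so sh-NC/HG alone was high. It was 2.11-fold higher (1.86 to 2.39) there than in sh-NC. Postn, the matricellular periostin gene, was 2.20-fold higher (1.45 to 3.39) in the same comparison and 3.72-fold lower (2.25 to 6.23) in sh-JAML/HG than in sh-NC/HG. Snai2, a transcription factor gene of epithelial-mesenchymal transition, was 2.87-fold lower (1.93 to 4.44) with the Jaml hairpin under added glucose.

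Among the genes whose products act on SMAD signalling inside the cell, Pmepa1 and Smad9 had the lowest ratios of their lists in sh-NC/HG against sh-NC. Pmepa1, a feedback inhibitor gene of the intracellular regulators, stood at 76.7, 19.1, 50.4 and 54.0 CPM, and was 4.02-fold lower (3.62 to 4.48) with glucose in sh-NC cells and 1.07-fold (0.983 to 1.17) in sh-JAML cells. Skil, which encodes the SMAD co-repressor SnoN and is named after its values were seen, was 1.55-fold lower (1.37 to 1.76) in sh-NC/HG and 1.06-fold lower (0.936 to 1.20) in sh-JAML/HG, each relative to the matched library without added glucose. The 17 intracellular regulators as a list had a median log2 ratio of -0.05 in sh-NC/HG, with 11 below 0. Of them, 2 were at least 2-fold lower, beside 3.27% of all genes. Of the 5 other SMAD genes, Smad9, a transducer of BMP signals, stood at 7.50, 1.46, 7.99 and 8.90 CPM. Its sh-NC/HG level was 5.14-fold lower (3.52 to 7.70) than in sh-NC and its sh-JAML/HG level 6.10-fold higher (4.22 to 9.07) than in sh-NC/HG.

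Of the 11 latency and activation genes past the count minimum, 7 lay below 0 in sh-NC/HG, with a median of -0.37. Among them, named after their values were seen, Thbs1, whose thrombospondin-1 product can activate latent ligand, was 2.27-fold lower (2.24 to 2.30) in sh-NC/HG and 1.24-fold lower (1.23 to 1.26) in sh-JAML/HG, again relative to the matched library. Itgb8, which encodes the beta8 chain of a ligand-activating integrin, was 1.92-fold lower (1.71 to 2.18) in sh-NC/HG and 1.09-fold (0.981 to 1.21) in sh-JAML/HG. The fibrillin gene Fbn1 was 2.36-fold lower (2.17 to 2.56) in sh-NC/HG, and shares 20.1% of its exon bases with Gm9913. Mmp2, a gelatinase gene, was 2.17-fold higher (1.12 to 4.4) in sh-JAML/HG than in sh-JAML. Of the 13 ligand and antagonist genes of the BMP and activin branches, Bmp7 stood at 0.554, 3.75, 1.52 and 0.817 CPM and was 6.76-fold higher (3.59 to 14.0) with glucose in sh-NC cells and 2.75-fold higher (1.32 to 5.98) in sh-JAML than in sh-NC. Under added glucose it was 4.58-fold lower (2.74 to 8.32) with the Jaml hairpin. The BMP antagonist gene Chrd was 2.72-fold higher (1.36 to 6.07) in sh-JAML/HG than in sh-JAML. These ratios rest on few counts, with 44 units for Chrd and 55 for Mmp2 in sh-JAML, and 44 for Bmp7 in sh-NC. None of the 9 further receptor genes past the count minimum was 2-fold apart in any of the 4 comparisons. Of all genes, 1.31% to 4.78% were, per comparison and direction, so 0 of 9 shows nothing particular to the receptors.

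**Figure D4:**
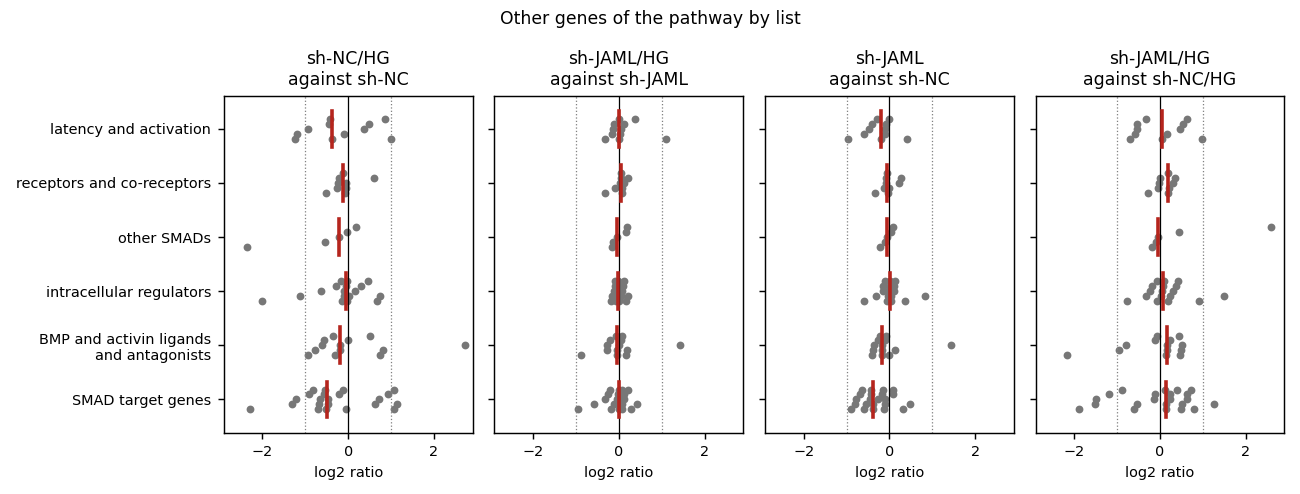
Each grey point is the log2 ratio of 1 further pathway gene past the count minimum, by list (rows) and comparison (panels), red ticks are list medians, and dotted lines mark 2-fold. SMAD target genes have a median of -0.49 in sh-NC/HG against sh-NC and of 0.01 in sh-JAML/HG against sh-JAML.

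For the 3 members with the widest range over the libraries, the genes nearest in profile were found by the distance between centred log2 levels over the 4 libraries, among 12969 genes with a mean count of 100 or more. Nearest to Tgfb3 were Slc1a2, a glutamate transporter gene (distance 0.171), and Slc25a48, a mitochondrial carrier gene (0.519). Nearest to Smad7 were Dmd, the dystrophin gene (0.090), and Comtd1 (0.103, with 37.3% of its exon bases shared with other genes), and nearest to Ltbp1 were Gm9905 (0.054, 28.8% shared) and Klrg2 (0.082). Of these candidates, 825 lay within a distance of 0.5 of Smad7, 1212 of Ltbp1 and 1 of Tgfb3.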

How the data were processed

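The deposited table gives the authors' estimated counts per Ensembl gene in 4 libraries, with no scaling between them. Per the submitters' processing notes, CASAVA 1.8 and TopHat2 2.0.6 were used with build mm10; no source used here names the counting tool, its annotation or its use of strand. The columns ctr and HG name no hairpin and were mapped to sh-NC and sh-NC/HG because the remaining columns name JAML. The design text speaks of 4 treated and 4 untreated samples; 4 libraries were analysed here. The labels name no osmotic control.

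Counts of 4, 8 and 12 were 1.51 to 2.1 times as frequent as neighbouring even counts, so 4 units were taken as 1 fragment. Intervals use fragments, and the floor is 3 fragments (12 units). Intervals and floors cover counting error only.

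Symbols, positions and exon lengths came from GENCODE M21 on GRCm38 (55480 of 56393 genes matched), and promoters from RefSeq (GRCm38.p6). Of the members, 6 matched windows that were read. Windows on chromosome 18, which holds Smad2 and Smad7, were left out. Counts were scaled with TMM factors (R 4.3.3, edgeR 4.0.16) over genes whose mean count reached 50. Log2 ratios used a prior count of 1; folds and levels used none. Single pairs have no test. The additive model (hairpin and glucose terms) was fitted with edgeR's quasi-likelihood test, Benjamini-Hochberg adjusted over 14187 genes at 0.05; its SE is the log2 difference divided by the square root of F. DESeq2 1.42.0 and limma 3.58.1 were alternatives, beside other scaling, count minimum, prior count and fold threshold. Scripts were tested on simulated data. Python 3.11.15, scipy 1.17.1 and matplotlib 3.10.9 gave the rest.

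The members and lists were chosen with earlier results of these data known. The rule named the 10 members, up to 3 list genes per direction and comparison past 2-fold, and the 2 nearest profiles of 3 members; others are marked as named after their values were seen. Some of the genes this rule names are not reported here.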

Additional observations from a re-analysis of the deposited data

Results flagged for a closer look

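For 3 of the 10 genes the glucose ratio lay on opposite sides of 1 under the control and the Jaml hairpin, each with a counting interval that excluded 1. The log2 glucose difference in sh-NC cells minus that in sh-JAML cells was 3.01 for Tgfb3, 0.239 for Smad3 and -1.34 for Smad7. With 1 library per group, these differences were not tested against the variation between cultures. The share of all 14187 genes that meet the same rule is not given here, so 3 of 10 cannot be read as particular to the set. The sh-NC/HG library, which enters each of these differences, held the highest or the lowest level of 72.3% of all genes past the count minimum. Tgfb3 rests on counts of 17 to 172 units per library.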

How the results depend on the processing

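The 40 log2 ratios of the members (10 genes in 4 comparisons) were recomputed with DESeq2 size factors, library totals only, upper quartile factors and a prior count of 5, and all stayed within their counting intervals. The exceptions in direction or side of 2-fold were Tgfb1 in sh-JAML against sh-NC, -0.022 to 0.013 with library totals only, and Tgfb3 in sh-NC/HG against sh-NC, 1.02 to 0.98 with a prior count of 5. Under the other scalings the median log2 ratio of all genes lay between -0.002 and 0.037, beside 0 to 0.002 with TMM.

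Counts of genes at least 2-fold apart, in the order sh-NC/HG against sh-NC, sh-JAML/HG against sh-JAML, sh-JAML against sh-NC and sh-JAML/HG against sh-NC/HG, were 1124, 408, 384 and 1077. They were 7971, 7220, 7318 and 7541 with no count minimum, 600, 139, 138 and 566 with a minimum mean count of 200, and 2695, 1099, 1138 and 2583 at a fold threshold of 1.5. For glucose in the additive model edgeR called 1 gene, DESeq2 53, limma-voom 0 and edgeR with no count minimum 0, and for the hairpin 0 by edgeR and 48 by DESeq2. No replicate could be left out, since each group has 1 library and the additive model would keep no residual degree of freedom.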
